A study of Mus musculus with 8 samples.

Results

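Activation of the kinase PERK in livers with intact Atf4 was examined in 4 of the 8 arrays of the series, 2 of AP20187-treated Atf4+/+ livers and 2 of untreated Atf4+/+ livers. They were chosen by their source names and descriptions. All mice of the series carried the low-expressing Ttr::Fv2E-Perk transgene of line #58, in which the Ttr promoter directs a dimerizable PERK to liver cells, so that the model rests on 1 transgenic line. They were siblings on a mixed FvB/n and Swiss Webster background. The 2 untreated groups and the 2 treated groups of the series differed in genotype, Atf4+/+ or Atf4-/-, and the 4 Atf4-/- arrays entered here through the shared estimate of the spread and 1 comparison near the end. The untreated livers are called untreated in the descriptions, and the series title speaks of mock injection. Dose, time, age and sex are not given in the sources used here. Nothing in the labels states that replicate arrays stem from separate mice, so the p-values below may measure only the spread between these samples, which may be technical.

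PERK is a kinase of the endoplasmic reticulum that phosphorylates the translation initiation factor eIF2 when unfolded proteins accumulate. Phosphorylated eIF2 slows general translation and favours the translation of Atf4 mRNA, and the ATF4 protein then switches on genes for amino acid supply, redox balance and feedback on the pathway, known as the integrated stress response (ISR). Fv2E-PERK carries a domain that the drug AP20187 joins into pairs, so that the kinase is activated without unfolded protein. In liver, a tissue with a heavy secretory load, this response is also known for its effects on lipid and glucose metabolism.

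Each deposited value was a linear ratio, in most cases relative to the probe set's median across the 8 arrays. A ratio of 1 is thus the middle of the series and not a level, and ratios of different genes cannot be ranked as levels. Log2 changes below are treated minus untreated on the scale of log2(ratio + 0.1), which understates the change of genes with low ratios, and ± marks the SE of the limma fit. Replicate numbers follow the order of the samples within each group, and do not pair arrays across groups. The Atf4 ratio stood against the label in 2 arrays. It was 0.30 in untreated Atf4+/+ replicate 2 and 1.67 in untreated Atf4-/- replicate 2, while the other 3 Atf4-/- arrays read 0.25 to 0.33. The sources used here do not give whether the probe set lies in the deleted part of Atf4, and groups are named by their labels throughout. Across probe sets, which are not independent replicates, Pearson's r of log2 ratios was 0.268 for the untreated pair, 0.312 for the treated pair and 0.116 to 0.4 between arrays of different groups. Treated replicate 2 stood farther from the untreated arrays than treated replicate 1 in 229 of 308 genes with separate groups and a log2 change of at least 1, and in 144 of 242 genes lower by as much. The 5' to 3' log2 ratio of the Actb control probe sets was -0.54 in that array and -0.17 to 0.12 in the other 3 arrays. That of the Gapdh control probe sets was -0.05 in the same array and -0.05 to 0.01 in the other 3 arrays. The part of these control ratios in the results was not tested.

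Of 12422 probe sets tested, 1 passed a limma adjusted p of 0.05 (0.00805% of probe sets, and 0.0121% of genes), with 0 lower. There were 1130 (9.1%) at an unadjusted limma p under 0.05, 594 higher (4.78%) and 536 lower (4.31%). When each of 8251 genes was read from 1 probe set, 407 were higher (4.93%) and 358 lower (4.34%) at that p, 9.27% in all. The treated and untreated arrays did not overlap in 1411 genes that stood higher (17.1%) and 1806 that stood lower (21.9%), 39% in all. With a log2 change of at least 1 as well, 308 genes stood higher (3.73%) and 242 lower (2.93%), 6.67% in all. Over probe sets these were 491 (3.95%) and 409 (3.29%), 7.25% in all. Large differences ran mostly upwards on the scale of log2(ratio + 0.1). Among genes whose groups did not overlap, 44 stood higher by at least 2 on that scale and 16 lower. There were 11 higher by at least 3 and 0 lower, and 5 higher by at least 4. The added 0.1 limits how far a low ratio can fall, so these counts are not an even measure of both directions. Under the alternative settings the lowest change of Crk was -3.04. The median over all genes was -0.06, and 44.9% of genes and 45.1% of probe sets had a change above 0.

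**Figure D1:**
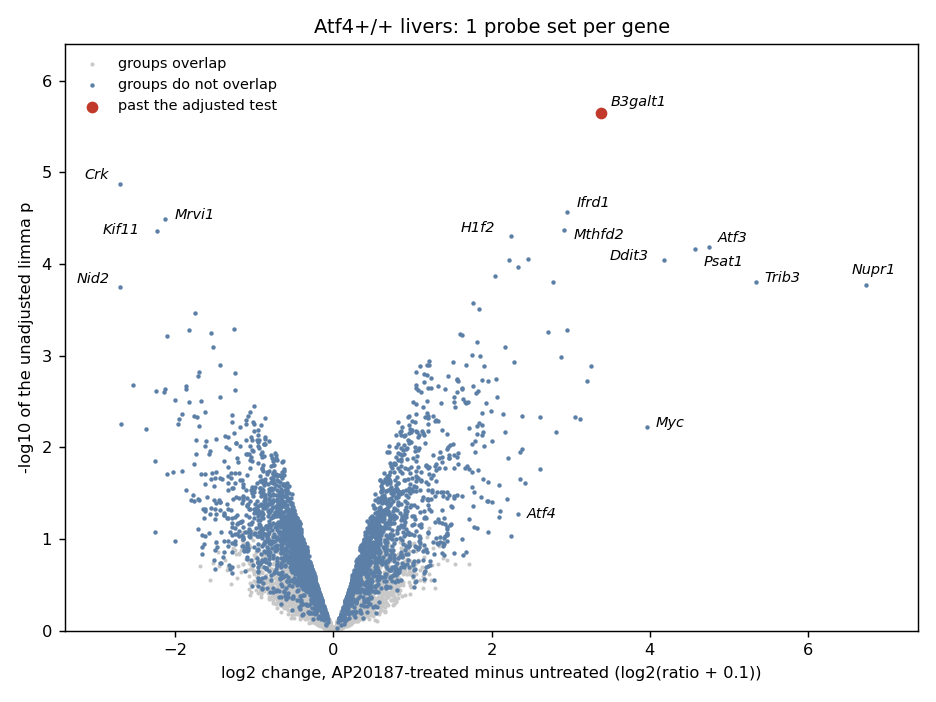
Each point is 1 of 8251 genes, with the log2 change (AP20187-treated minus untreated Atf4+/+ livers, on the scale of log2(ratio + 0.1)) on the x axis and -log10 of the unadjusted limma p on the y axis. Blue points have groups that do not overlap, grey points have groups that overlap, and the red point is B3galt1, the 1 gene past the adjusted test; the right arm reaches 6.74 (Nupr1) and the left arm -2.70 (Crk).

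B3galt1, which encodes a galactosyltransferase that extends glycan chains, rose with AP20187. Its ratios were 0.26 and 0.32 in the untreated livers and 4.32 and 3.67 in the treated livers. Both treated arrays stood far above both untreated arrays, with little spread inside either group (log2 change 3.39 ± 0.21, limma adjusted p = 0.0279). The call ended when any 1 of the 4 arrays was left out (log2 change 3.28 to 3.51, limma adjusted p 0.156 to 0.322). It also ended without both arrays of doubted Atf4 ratio, and in a fit of the 4 Atf4+/+ arrays alone, and the adjusted p over all alternatives ranged from 0.0108 to 0.481. The number of probe sets past the test depended on the setting, and was 5 higher and 3 lower when probe sets with a median ratio below 0.99 were left out. It was 15 higher and 2 lower when the untreated Atf4-/- array that its description calls Atf4+/+ was grouped by that description.

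Atf4 and Eif2ak3, the gene of PERK itself, were read next. Atf4 had ratios of 2.36 and 0.30 in untreated replicates 1 and 2, and 4.17 and 5.75 in the treated livers. The groups did not overlap, but the untreated arrays lay far apart, and untreated replicate 2 was as low as most Atf4-/- arrays (log2 change 2.33 ± 0.99, limma adjusted p = 0.559). Without untreated replicate 2 the change was 1.02, and without untreated replicate 1 it was 3.64. Eif2ak3 had ratios of 0.85 and 1.09 untreated and 0.99 and 1.37 treated, which overlap (0.25 ± 0.40). The sources used here do not give whether its probe set reads RNA of the transgene.

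Regulators of the integrated stress response stood higher as a group. Of 11 measured regulators 11 had a log2 change above 0, 6 had an unadjusted limma p under 0.05 in the higher direction (4.93% of all genes) and 0 in the lower. In 10 the treated arrays lay wholly above the untreated ones (17.1% of all genes). Their median log2 change was 1.89, against -0.06 over all genes, and it lay between 1.36 and 2.08 when any 1 array was left out. Single genes did not pass the adjusted test, and the adjusted p of Nupr1, Trib3, Atf3 and Ddit3 lay between 0.0806 and 0.11 by limma.

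Nupr1, which encodes a small chromatin-associated stress protein, had ratios of 0.15 in both untreated livers and of 18.55 and 38.40 in the treated livers. Treated replicate 2 was the highest value of that array and both treated values were far from the untreated pair (log2 change 6.74 ± 0.86). Trib3, a pseudokinase gene that restrains ATF4 and the kinase AKT, had 0.06 and 0.09 untreated against 3.78 and 12.75 treated (5.34 ± 0.67). Its treated arrays differed from each other, and each still stood above both untreated arrays.

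Atf3, a transcription factor gene induced by many stresses, had ratios of 0.42 and 0.23 untreated and 7.35 and 16.59 treated (4.75 ± 0.52). A second probe set of Atf3 gave 5.18 and another -0.27, so that its probe sets did not all point the same way. Ddit3, which encodes the stress factor CHOP, had 0.09 and 0.21 untreated and 3.12 and 5.95 treated (4.18 ± 0.48). In each of these genes treated replicate 2 was the higher treated array.

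Atf5, a relative of ATF4, had ratios of 0.47 and 0.45 untreated and 2.27 and 1.72 treated (1.89 ± 0.48, limma adjusted p = 0.373). Cebpg, a dimer partner of ATF4, had 0.72 and 0.54 against 1.80 and 2.23 (1.54 ± 0.34, limma adjusted p = 0.315). Both groups were separate in these genes, at smaller sizes than in Nupr1 and Trib3. Cebpb, which encodes another C/EBP factor, had 0.78 and 0.90 untreated and 1.05 and 2.33 treated (0.83 ± 0.39), and its change ranged from 0.29 to 1.37 when any 1 array was left out. Treated replicate 2 stood far above the other 3 arrays. Cebpd (0.67 ± 0.30, 0.40 to 0.95 when any 1 array was left out) and Nfe2l1 (0.27 ± 0.23, 0.13 to 0.41) had separate groups too. Nfe2l2, the gene of the redox factor NRF2, stood at 0.04 ± 0.24 with overlapping groups.

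C/EBP and ATF factors are known to bind a composite element, and promoter windows of named genes were therefore searched for its core. The genes searched were Atf4, Eif2ak3, the named stress, synthesis and synthetase genes, and those named by test, smallest p or largest change. The motif was TGATGNAA on both strands, together with its nested form TGATGCAA, in RefSeq windows of 300 bases from 250 before to 50 after a start site on GRCm38.p6. TGATGNAA stood in 3.97% of all 32851 windows, and in 3% of the 6576 measured genes that had a window. It stood in 3 of 10 ISR regulators with a window (30%), in 2 of 11 effectors (18.2%), in 2 of 12 synthesis genes (16.7%) and in 5 of 12 tRNA synthetases (41.7%). Genes chosen only by separate groups and a log2 change of at least 1 held it in 12 of 255 (4.71%) where higher and in 6 of 189 (3.17%) where lower. TGATGCAA stood in 0.895% of all windows, in 2 of the 10 regulators and in 4 of the 12 synthetases. These shares are descriptions, a match is not a site shown to be bound, and the part of the motif in the changes was not tested.

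The windows below show where the match lies in 7 genes with higher values and in 2 genes, Got1 and Tars, that hold a match without a clearly higher value. Capitals mark the 8 bases matched, as read 5' to 3' on the gene's own strand. Positions count from 1 at the start site, with negative numbers before it.
Nupr1 (chr7:126625527-126625626, minus strand, -156 to -57): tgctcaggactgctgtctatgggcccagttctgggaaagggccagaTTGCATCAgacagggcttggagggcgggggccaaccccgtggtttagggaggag
Atf3 (chr1:191183390-191183489, minus strand, -156 to -57): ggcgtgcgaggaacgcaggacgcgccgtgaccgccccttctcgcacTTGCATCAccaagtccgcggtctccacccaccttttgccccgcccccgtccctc
Asns (chr6:7693210-7693309, minus strand, -100 to -1): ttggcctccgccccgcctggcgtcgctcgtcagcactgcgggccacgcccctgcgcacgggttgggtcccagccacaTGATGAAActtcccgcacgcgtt
Aars (chr8:111033684-111033783, plus strand, -158 to -59): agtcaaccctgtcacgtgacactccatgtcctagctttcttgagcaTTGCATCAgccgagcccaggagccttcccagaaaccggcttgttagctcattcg
Gars (chr6:55037901-55038000, plus strand, -100 to -1): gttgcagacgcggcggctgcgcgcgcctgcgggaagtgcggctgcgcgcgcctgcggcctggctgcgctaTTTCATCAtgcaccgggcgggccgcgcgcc
Trib3 (chr2:152344028-152344057, minus strand, 4 to 33): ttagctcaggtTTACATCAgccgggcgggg
Iars (chr13:49682126-49682155, plus strand, -4 to 26): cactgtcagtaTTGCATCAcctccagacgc
Got1 (chr19:43524654-43524753, minus strand, -148 to -49): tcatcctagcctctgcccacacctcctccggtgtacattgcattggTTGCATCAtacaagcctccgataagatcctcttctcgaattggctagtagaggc
Tars (chr15:11399659-11399758, minus strand, -100 to -1): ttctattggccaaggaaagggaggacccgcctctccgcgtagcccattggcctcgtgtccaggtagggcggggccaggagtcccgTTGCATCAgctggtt

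In Nupr1 and in Atf3 the match was TTGCATCA, the form TGATGCAA read on the other strand, and in both it spanned positions -110 to -103. Asns had the form TGATGAAA on the gene's strand at positions -23 to -16. Aars held another match, TTTCATCA, at positions 10 to 17, outside the stretch shown. Of 91 named genes searched, 76 had a window and 13 held a match. The genes with the highest changes did not all hold one, and Psat1, Mthfd2 and Ddit3 are not among the 13.

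Effectors and feedback genes of the response stood higher in part. Of 14 measured members 11 had a change above 0, and the median was 0.50 (0.31 to 0.51 when any 1 array was left out). There were 4 higher and 0 lower at an unadjusted limma p under 0.05 (4.93% and 4.34% of all genes). Ddit4, an inhibitor of mTORC1 signalling, had ratios of 0.43 and 0.31 untreated and 5.49 and 1.35 treated (2.61 ± 0.61). Both treated arrays were higher, and here treated replicate 1 stood far above replicate 2. Sqstm1, the gene of the autophagy receptor p62, had 0.56 and 0.69 against 1.45 and 2.71 (1.53 ± 0.33).

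Ppp1r15a, which encodes GADD34, the phosphatase subunit that reverses eIF2 phosphorylation, had ratios of 0.95 and 0.92 untreated and 1.59 and 2.30 treated (0.96 ± 0.26). Ero1a, an oxidase of the endoplasmic reticulum, had 1.04 and 0.82 against 1.44 and 1.79 (0.74 ± 0.23). Treated arrays were the higher ones in both genes. Eif4ebp1, the gene of the translation repressor 4E-BP1, stood at 0.49 ± 0.21 and the kinase inhibitor gene Dnajc3 at 0.23 ± 0.25, both separate. The lipoprotein receptor gene Vldlr was separate as well (0.66 ± 0.39). Ndrg1 (0.64 ± 0.48), Herpud1 (0.50 ± 0.50), Ppp1r15b (0.22 ± 0.41), Vegfa (0.07 ± 0.24), Stc2 (-0.15 ± 0.26) and Atg5 (-0.24 ± 0.29) had overlapping groups. Map1lc3b, the gene of the autophagosome protein LC3B, stood lower in both treated arrays (-0.43 ± 0.23).

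Genes of the translation control point itself showed little. Of 12 measured genes for eIF2 kinases, eIF2, eIF2B and their regulators 8 were above 0, with a median of 0.24. At an unadjusted limma p under 0.05, 0 were higher and 1 lower (4.93% and 4.34% of all genes). The median was -0.00 without untreated replicate 2, 0.14 without treated replicate 1 and 0.11 without treated replicate 2, and 0 genes were lower at that p when any 1 of the 4 arrays was left out. Impact, the gene of an inhibitor of the kinase GCN2, had ratios of 1.81 and 1.40 untreated and 0.64 and 0.38 treated (-1.51 ± 0.57). Its treated arrays lay below both untreated arrays. Eif2ak2, the gene of the kinase PKR, stood at -0.55 ± 0.23. The eIF2B subunit gene Eif2b4 stood at 0.55 ± 0.26.

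**Figure D2:**
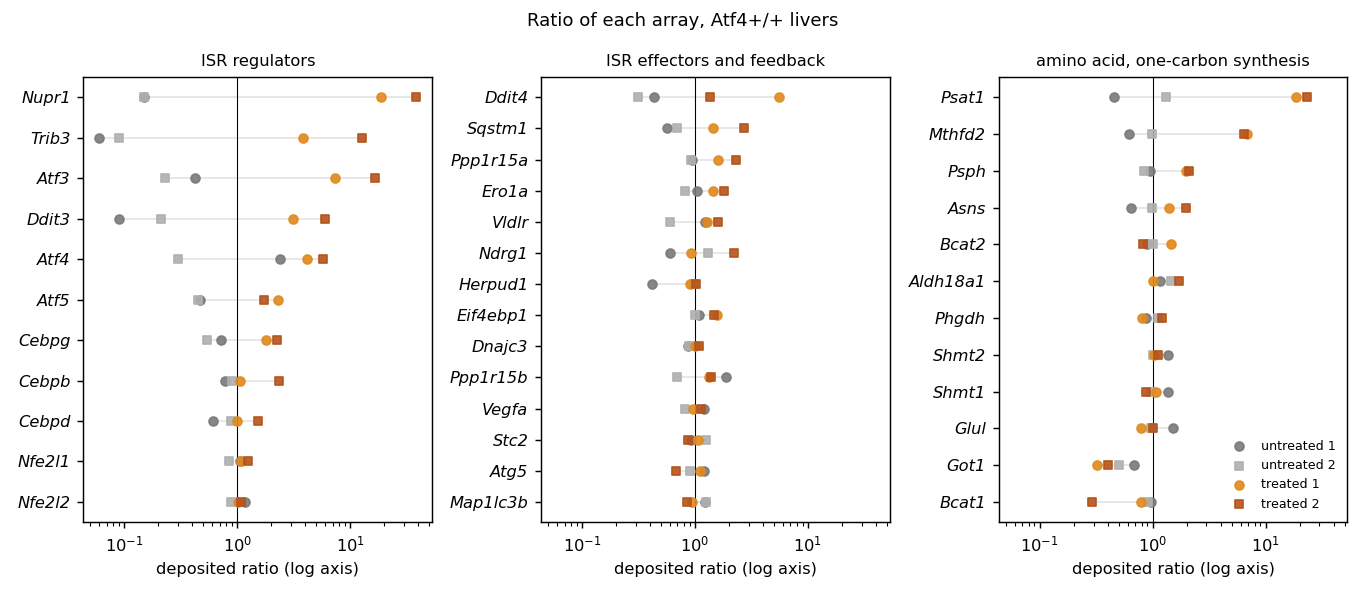
Deposited ratio of each array (x axis, log scale, no unit) for every measured gene of 3 lists, with grey symbols for untreated and orange symbols for AP20187-treated Atf4+/+ livers, circles for replicate 1 and squares for replicate 2. The treated values of Nupr1 (18.55 and 38.40), Psat1 (18.70 and 23.45) and Mthfd2 (6.79 and 6.43) lie far to the right, while those of the other synthesis genes lie closer to 1.

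Amino acid and one-carbon synthesis showed a few large differences beside many small ones. Of 12 measured genes 6 had a change above 0. There were 4 higher and 0 lower at an unadjusted limma p under 0.05 (4.93% and 4.34% of all genes), and the median was -0.01. That median moved between -0.13 and 0.15 when any 1 array was left out. Psat1, the aminotransferase of serine synthesis, had ratios of 0.46 and 1.31 untreated and 18.70 and 23.45 treated (4.57 ± 0.50, limma adjusted p = 0.0806). Mthfd2, a mitochondrial folate enzyme, had 0.62 and 0.99 against 6.79 and 6.43 (2.92 ± 0.30, limma adjusted p = 0.0765), and its second probe set gave 0.87. In both genes the treated pair was close together and far above the untreated pair.

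Psph, the last enzyme of serine synthesis, had ratios of 0.95 and 0.84 untreated and 1.98 and 2.08 treated (1.10 ± 0.20, limma adjusted p = 0.243). Asns, the asparagine synthetase, had 0.65 and 0.98 against 1.41 and 1.97 (0.97 ± 0.33), with 1.83 on its second probe set. Both stood higher in each treated array. Phgdh, the first enzyme of serine synthesis, stood at -0.02 ± 0.32 with overlapping groups. The name of its probe set ends in _r_at and not, as for Psat1 and Psph, in a plain _at. As read from these probe sets, the 3 steps from glycolysis to serine did not show equal changes. Shmt1 (-0.22 ± 0.27) and Shmt2 (-0.13 ± 0.24), the enzymes between serine and glycine, and the glutamine synthetase gene Glul (-0.41 ± 0.29) had changes below 0 with overlapping groups. Bcat2 (0.20 ± 0.31) and Aldh18a1 (0.00 ± 0.37) overlapped too. Got1, an aspartate aminotransferase, stood at -0.59 ± 0.50 and the branched-chain aminotransferase gene Bcat1 at -0.82 ± 0.38, each lower in both treated arrays.

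The tRNA synthetases, which load amino acids onto transfer RNA, stood higher with smaller and more even changes. Of 19 measured cytosolic enzymes 17 had a change above 0, 11 were higher and 0 lower at an unadjusted limma p under 0.05 (4.93% and 4.34% of all genes), and 14 had separate groups with the treated arrays higher. The median was 0.68, and 0.59 to 0.81 when any 1 array was left out. The count of 11 was 6 without treated replicate 2. No enzyme passed the adjusted test, and Gars had the smallest limma adjusted p of the list, 0.262.

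Gars, the enzyme for glycine, had ratios of 1.10 and 0.91 untreated and 2.27 and 2.39 treated (1.14 ± 0.22). Aars, for alanine, had 0.83 and 0.71 against 1.58 and 2.05 (1.13 ± 0.25). Lars, for leucine, had 0.91 and 0.88 against 1.69 and 2.68 (1.16 ± 0.27). In all 3 genes both treated arrays stood above both untreated arrays.

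Nars, for asparagine, had 0.98 and 1.07 untreated and 2.11 and 2.34 treated (1.05 ± 0.24). Cars, for cysteine, had 3.0 and 0.52 untreated and 5.21 and 5.23 treated (1.94 ± 0.74). The untreated arrays of Cars were far apart while its treated arrays were nearly equal. In Atf4-/- livers Cars had 0.60 and 1.40 untreated and 0.56 and 0.58 treated. Its lower untreated Atf4+/+ array and its higher untreated Atf4-/- array were thus those of doubted Atf4 ratio. The cause was not tested. Sars (1.07 ± 0.33), Iars (0.96 ± 0.25), Eprs (0.94 ± 0.22), Farsa (0.94 ± 0.46), Mars1 (0.68 ± 0.22), Rars (0.68 ± 0.24), Farsb (0.64 ± 0.26), Yars (0.58 ± 0.28) and Vars (0.57 ± 0.24) were separate and higher as well. Hars (0.33 ± 0.43), Tars (0.18 ± 0.24), Wars (0.04 ± 0.29) and Qars (-0.09 ± 0.24) overlapped between groups, and the other two probe sets of Wars gave 1.65 and 0.64. Kars, for lysine, stood lower (-0.63 ± 0.66).

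Amino acid transporters showed a mixed picture. Of 16 measured 10 had a change above 0, and the median was 0.36 (0.19 to 0.37 when any 1 array was left out). At an unadjusted limma p under 0.05, 3 were higher and 0 lower (4.93% and 4.34% of all genes). The count of 3 was 1 without untreated replicate 2, 2 without treated replicate 1 or 2, and 1 lower gene then appeared in each of the latter cases. Slc1a4, a carrier of small neutral amino acids, had ratios of 1.01 and 0.86 untreated and 2.07 and 2.20 treated (1.11 ± 0.23). Slc3a2, the heavy chain shared by several exchangers, had 0.82 and 0.66 against 1.36 and 1.22 (0.73 ± 0.22). Treated arrays were higher in both.

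Slc1a1, a glutamate carrier, had ratios of 0.71 and 0.19 untreated and 1.10 in both treated livers (1.31 ± 0.47), while its second probe set gave -0.74. Slc7a11, the cystine exchanger, had 1.11 and 1.42 untreated and 0.43 and 2.15 treated (-0.31 ± 0.82), with the treated arrays on either side of the untreated ones. Slc7a7 (0.87 ± 0.54), Slc38a2 (0.53 ± 0.30), Slc7a5 (0.48 ± 0.26), Slc6a9 (0.42 ± 0.23) and Slc3a1 (0.30 ± 0.27) were separate and higher. The other probe sets of Slc38a2 gave -0.13, -0.12 and -1.49. Slc7a8 (0.58 ± 0.54), Slc1a2 (0.25 ± 0.26), Slc1a5 (-0.26 ± 0.26) and the cationic carrier gene Slc7a1 (-0.53 ± 0.42) overlapped. Slc38a4 (-0.40 ± 0.25), Slc7a2 (-0.42 ± 0.30) and Slc7a3 (-0.62 ± 0.49) stood lower in both treated arrays.

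**Figure D3:**
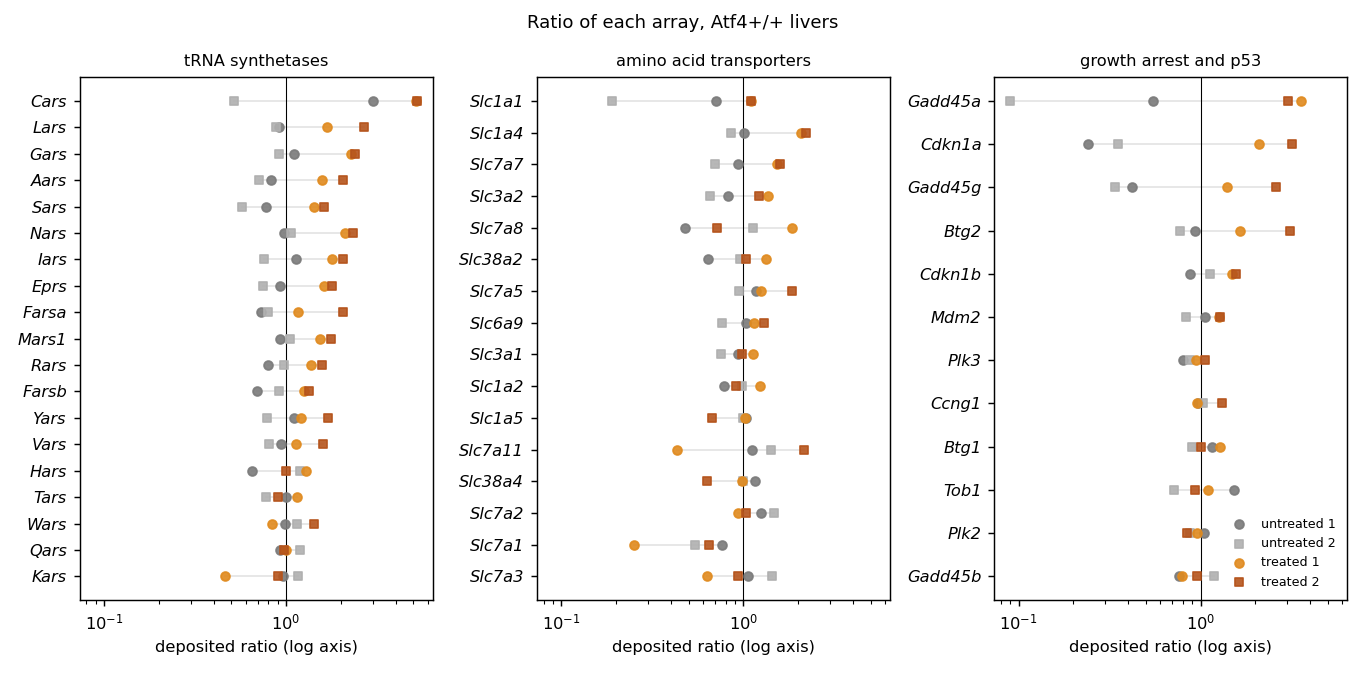
Deposited ratio of each array (x axis, log scale, no unit) for every measured tRNA synthetase, amino acid transporter and growth arrest gene, with grey symbols for untreated and orange symbols for AP20187-treated Atf4+/+ livers, circles for replicate 1 and squares for replicate 2. In 14 of 19 synthetases both orange symbols lie to the right of both grey ones, as they do for Cdkn1a (2.09 and 3.19 against 0.24 and 0.35).

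Translation factors stood slightly higher. Of 23 measured genes 19 had a change above 0, and the median was 0.30. Higher at an unadjusted limma p under 0.05 were 6 and lower 0 (4.93% and 4.34% of all genes). The median was 0.15 and the count 3 without treated replicate 2, and the median was 0.52 without treated replicate 1. Eif4g3, a scaffold of the cap-binding complex, had ratios of 0.61 and 0.67 untreated and 1.62 and 1.99 treated (1.36 ± 0.30). Eif3c, a subunit of the initiation factor eIF3, had 0.89 and 0.97 against 1.51 and 1.86 (0.79 ± 0.22). Among 21 ribosomal protein genes, whose median was -0.01 and 0.04 to 0.06 when any 1 array was left out, 3 were higher at an unadjusted limma p under 0.05, namely Rpl22 (1.56 ± 0.30, second probe set 0.57), Rpl13a (1.21 ± 0.22) and Rpl10a (0.56 ± 0.22).

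Growth arrest genes held 4 larger changes. Of 12 measured genes 9 were above 0, and the median was 0.31. At an unadjusted limma p under 0.05, 4 were higher and 0 lower (4.93% and 4.34% of all genes). Cdkn1a, the gene of the cell cycle inhibitor p21, had ratios of 0.24 and 0.35 untreated and 2.09 and 3.19 treated (2.78 ± 0.35, limma adjusted p = 0.109; second probe set 2.11). Gadd45a, a stress sensor gene, had 0.55 and 0.09 against 3.56 and 3.01 (3.26 ± 0.60). Both stood far above their untreated arrays. Gadd45g (2.07 ± 0.44) and the antiproliferative gene Btg2 (1.32 ± 0.32) had separate groups, higher when treated.

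Of 17 immediate early genes, which respond within minutes to many stimuli, 13 were above 0 with a median of 0.56. There were 3 higher and 0 lower at an unadjusted limma p under 0.05 (4.93% and 4.34% of all genes). That count was 5 after centring or quantile normalization and 5 without treated replicate 1, and the median ranged from 0.23 to 0.90 when any 1 array was left out. Myc had ratios of 0.44 and 0.14 untreated and 4.81 and 6.30 treated (3.96 ± 0.98). Klf6 had 0.64 and 0.66 against 1.43 and 1.81 (1.19 ± 0.24), and Jun stood at 0.80 ± 0.29. Junb had 0.73 and 0.97 untreated and 0.92 and 4.25 treated (1.16 ± 0.96), so that its high value came from treated replicate 2 alone. In cell division and DNA synthesis 11 of 25 genes were above 0, with a median of -0.06. At that p 0 were higher and 2 lower (4.93% and 4.34% of all genes). The median ranged from -0.23 to -0.12 when any 1 array was left out. There were 4 lower without untreated replicate 2, 1 lower without treated replicate 2, and 3 higher without treated replicate 1. The 2 lower genes were the spindle motor gene Kif11 and Rrm1, a subunit of ribonucleotide reductase (-1.33 ± 0.44, second probe set 0.64).

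Genes of the other arms of the unfolded protein response did not stand higher as a group. Of 19 measured chaperones and response genes of the endoplasmic reticulum 8 were above 0, and the median was -0.12. At an unadjusted limma p under 0.05, 1 was higher and 1 lower, near the 4.93% and 4.34% of all genes. The median was 0.14 without untreated replicate 2. Xbp1, the transcription factor gene of the IRE1 arm, had ratios of 0.79 and 0.68 untreated and 1.42 and 1.66 treated (0.97 ± 0.24, limma adjusted p = 0.373). Hspa5, the chaperone BiP, had 0.73 and 0.71 against 1.10 and 1.13 (0.57 ± 0.30). Both were higher in each treated array, while P4hb, a disulfide isomerase, was lower (1.30 and 1.25 against 0.70 and 0.86, -0.65 ± 0.21).

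Of 12 heat shock genes 2 were higher at an unadjusted limma p under 0.05, the mitochondrial chaperone gene Hspa9 (0.84 ± 0.21) and Hspa4 (0.79 ± 0.30, with its other probe sets at 0.13 to 0.98). The heat shock count was 1 without either untreated array or treated replicate 2, with 1 lower gene in the last case, and 0 without both arrays of doubted Atf4 ratio. Of 20 antioxidant genes 7 were above 0, 12 when treated replicate 2 was omitted and 10 when untreated replicate 1 was, and 1 was higher at that p, a share near the 4.93% of all genes. This was Srxn1, the sulfiredoxin gene, with ratios of 0.83 and 0.81 untreated and 1.93 and 3.52 treated (1.56 ± 0.32, second probe set -0.11).

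**Figure D4:**
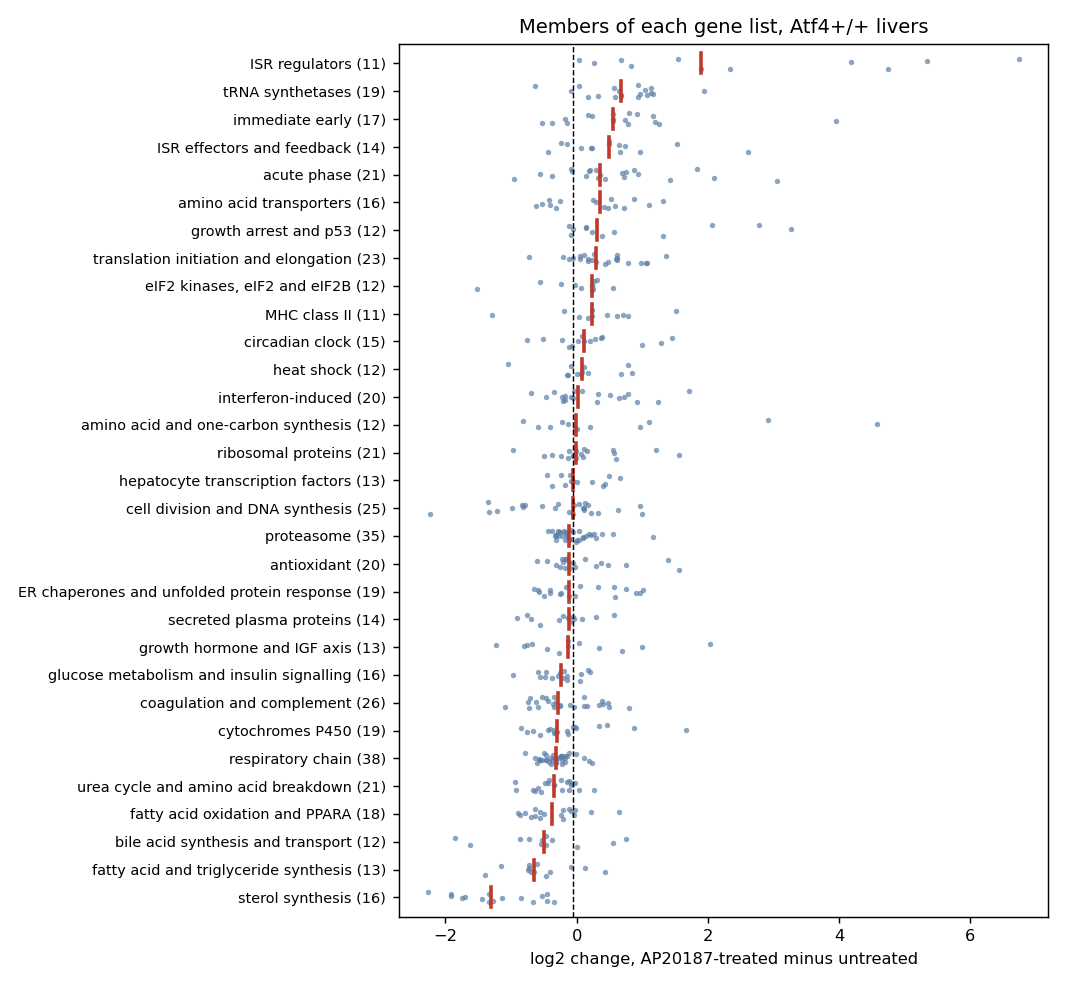
Log2 change (x axis, AP20187-treated minus untreated Atf4+/+ livers) of every measured member of 31 gene lists, 1 point per gene, with the list's median as a red bar, the number measured in brackets and the median of all genes (-0.06) as a dashed line. Medians run from -1.30 for sterol synthesis to 1.89 for ISR regulators, and most lists of liver metabolism lie left of the dashed line.

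Sterol synthesis stood lower in every measured gene when each was read from 1 probe set. Of 16 genes 0 had a change above 0, and 7 were lower (4.34% of all genes) and 0 higher at an unadjusted limma p under 0.05. In 10 the treated arrays lay wholly below the untreated ones (21.9% of all genes). The median was -1.30. When untreated replicate 2, treated replicate 1 or treated replicate 2 was left out, 1 gene was above 0. The further probe sets of Fdps, a gene of the list, gave -0.61, 1.41 and -1.28, so that they did not all stand lower. The median ratio of the list was 1.15 and 2.72 in untreated replicates 1 and 2, and 0.985 and 0.48 in treated replicates 1 and 2, so that replicate 2 was the extreme array on both sides. Without untreated replicate 2 the median was -0.65 with 3 genes at that p, and without treated replicate 2 it was -0.87 with 3 genes. Without untreated replicate 1 it was -1.87 with 13 genes, and without treated replicate 1 it was -1.76 with 12 genes. Without both arrays of doubted Atf4 ratio the count was 1.

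Mvd, which makes isopentenyl pyrophosphate, had ratios of 1.5 and 2.45 untreated and 0.65 and 0.28 treated (-1.92 ± 0.44, limma adjusted p = 0.338). Dhcr7, a late enzyme of cholesterol synthesis, had 1.58 and 2.75 against 0.87 and 0.37 (-1.70 ± 0.42). Idi1, the isomerase of the same pathway, had 1.24 and 4.15 against 0.81 and 0.34 (-1.92 ± 0.61). Treated arrays were the lower ones throughout.

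Msmo1 (-1.74 ± 0.46), Nsdhl (-1.44 ± 0.56), Hmgcs1 (-1.33 ± 0.45) and Fdft1 (-1.27 ± 0.45) were the other 4 genes past the unadjusted p. Mvk, the mevalonate kinase, had 1.08 and 17.15 untreated and 0.91 and 0.78 treated (-2.26 ± 1.10), where untreated replicate 2 was the highest value of that array. Without that array its change was -0.32, and its second probe set gave -0.94.

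Fatty acid and triglyceride synthesis stood lower as well, with 2 of 13 genes above 0 and a median of -0.65. There were 2 lower and 0 higher at an unadjusted limma p under 0.05 (4.34% and 4.93% of all genes). The median ranged from -1.09 to -0.25 when any 1 array was left out, and the count was 0 without untreated replicate 2 or treated replicate 2 and 4 without treated replicate 1. Acly, which makes cytosolic acetyl-CoA, had ratios of 1.23 and 1.35 untreated and 0.89 and 0.61 treated (-0.73 ± 0.24). Thrsp, a lipogenic regulator, had 1.78 and 1.89 against 0.87 and 0.68 (-1.15 ± 0.44). Fasn, the fatty acid synthase, had 2.29 and 1.58 against 1.09 and 0.39 (-1.39 ± 0.59). All 3 were lower in each treated array.

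Bile acid synthesis and transport had 3 of 12 genes above 0, 4 lower and 0 higher at that p, and a median of -0.49 (-0.82 to -0.15 when any 1 array was left out, and 1 gene lower without treated replicate 2). Cyp8b1, the sterol 12-alpha-hydroxylase, had ratios of 1.0 and 1.64 untreated and 0.27 and 0.29 treated (-1.86 ± 0.38, limma adjusted p = 0.266). Nr0b2, the repressor SHP, had 0.88 and 1.94 against 0.36 in both treated livers (-1.62 ± 0.55). In both genes the treated arrays were close together and low. Hsd3b7 (-0.73 ± 0.21) and the bile acid carrier gene Slc10a1 (-0.86 ± 0.32) stood lower too, while Cyp7a1, the rate-limiting enzyme, overlapped (-0.53 ± 0.77).

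**Figure D5:**
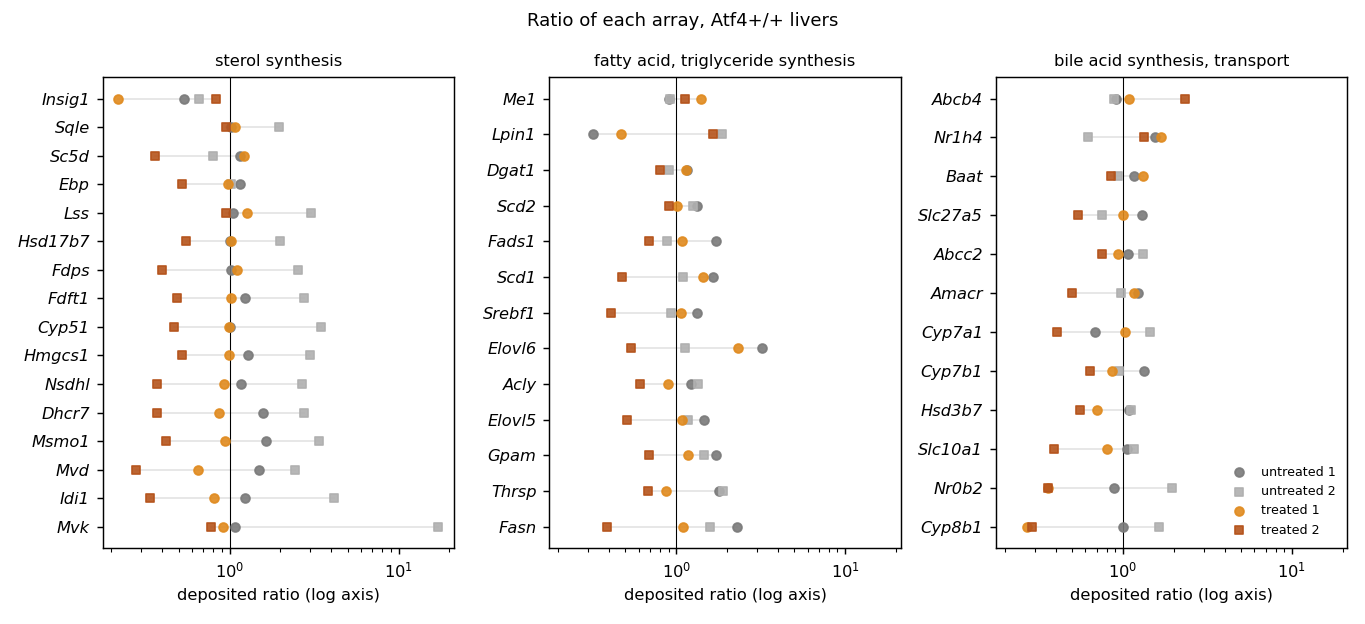
Deposited ratio of each array (x axis, log scale, no unit) for every measured gene of sterol synthesis, fatty acid and triglyceride synthesis and bile acid metabolism, with grey symbols for untreated and orange symbols for AP20187-treated Atf4+/+ livers, circles for replicate 1 and squares for replicate 2. In sterol synthesis the grey square (untreated replicate 2, median ratio 2.72) is mostly the rightmost symbol and the dark orange-brown square (treated replicate 2, 0.48) the leftmost, with both circles near 1.

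Other liver functions shifted less. Fatty acid oxidation had 2 of 18 genes above 0 and a median of -0.37. This list had 1 lower gene at an unadjusted limma p under 0.05, Hadhb (-0.64 ± 0.22), a share near the 4.34% of all genes. Its median was -0.67 with 4 genes lower in the absence of treated replicate 1, and -0.17 with 0 lower in the absence of treated replicate 2. Leaving out untreated replicate 1 gave a median of -0.23 with 5 genes above 0, and leaving out untreated replicate 2 gave -0.45 with 2 genes lower. In the respiratory chain 3 of 38 genes were above 0 and the median was -0.32. There 0 genes were higher or lower at that p by limma, and 11 were lower without treated replicate 1. The median ratio of that list was 1.12 and 0.99 untreated and 0.98 and 0.70 treated, so that treated replicate 2 was the low array. Urea cycle and amino acid breakdown had 2 of 21 genes above 0, a median of -0.35 and 0 genes at that p by limma. There were 6 lower with a median of -0.58 when treated replicate 1 was omitted, and 0 lower with a median of -0.04 and 7 genes above 0 when treated replicate 2 was.

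Glucose metabolism and insulin signalling had 4 of 16 genes above 0 and a median of -0.23, which was -0.08 without treated replicate 2. Omitting untreated replicate 1 gave -0.15, and omitting untreated replicate 2 gave -0.38. Irs2, an adaptor of the insulin receptor, had ratios of 1.54 and 0.95 untreated and 0.61 and 0.53 treated (-0.97 ± 0.37), lower in both treated arrays. Pck1, the gluconeogenic carboxykinase, stood at -0.56 ± 0.26. In the growth hormone and IGF axis Igfbp1, a secreted IGF-binding protein gene, had ratios of 0.33 and 0.43 untreated and 1.83 and 1.89 treated (2.04 ± 0.25, limma adjusted p = 0.104), although its second probe set gave -0.57. Igfbp2 stood lower, with 1.34 and 1.55 against 0.61 and 0.51 (-1.23 ± 0.33). Among 19 cytochrome P450 genes Cyp2b10, a drug-inducible enzyme, stood highest (0.84 and 0.49 against 1.52 and 3.37, 1.67 ± 0.52), and Cyp1a2 stood at -0.85 ± 0.33.

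Acute phase genes, part of the hepatic reaction to inflammation, stood higher in 16 of 21 genes, with a median of 0.36. At an unadjusted limma p under 0.05, 5 were higher and 0 lower (4.93% and 4.34% of all genes). That count fell to 3 when untreated replicate 1 was left out, and to 2 when either untreated replicate 2 or treated replicate 2 was. Lcn2, the gene of a siderophore-binding protein, had ratios of 0.08 and 0.27 untreated and 1.68 and 2.46 treated (3.05 ± 0.71), and its second probe set gave 0.15. Apcs, the serum amyloid P gene, had 0.29 and 0.47 against 1.46 and 1.71 (1.83 ± 0.38). Saa2, a serum amyloid A gene, had 0.48 and 0.75 against 1.22 and 6.64 (2.09 ± 0.72), with 3.56 on its second probe set, and treated replicate 2 was far the higher array.

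Coagulation and complement genes ran mostly the other way, with 9 of 26 above 0 and a median of -0.29. At an unadjusted limma p under 0.05, 1 was higher, near the 4.93% of all genes, and 3 were lower (4.34%). The 3 lower were Klkb1 (-1.09 ± 0.31), Hc (-0.71 ± 0.27) and Serpind1 (-0.72 ± 0.29), a prekallikrein gene, the complement C5 gene and the heparin cofactor gene. Their count was 1 without untreated replicate 1 or 2, 7 without treated replicate 1 and 0 without treated replicate 2. Of 20 interferon-induced genes 10 were above 0, and 4 were higher at that p (4.93% of all genes). The chemokine gene Cxcl10 stood at 1.71 ± 0.54 and Cxcl9 at 1.24 ± 0.44. The count was 1 without untreated replicate 2 or treated replicate 2. The clock regulator gene Nfil3 stood at 1.45 ± 0.40, with 0.80 on its second probe set.

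Cell type markers were read the same way. A ratio cannot show whether a marker is present, and no detection calls were used here. At an unadjusted limma p under 0.05 0 marker genes were higher and 3 lower (4.93% and 4.34% of all genes). These 3 were Ttr, the endothelial gene Vwf (-0.65) and the red cell factor gene Klf1 (-0.62). Of 5 hepatocyte markers 2 were above 0, and Alb stood at -0.04 ± 0.19. Ttr, whose promoter drives the transgene, had ratios of 1.15 and 1.02 untreated and 0.83 and 0.47 treated (-0.70 ± 0.28, limma adjusted p = 0.54). Of 7 endothelial markers, each read from 1 probe set, 0 were above 0, although the second probe set of Vwf gave 0.98. The median ratio of these markers was 1.32 and 1.07 untreated and 1.11 and 0.81 treated. Macrophage markers had median ratios of 0.87 and 1.0 untreated and 0.92 and 1.0 treated. Neutrophil markers had 0.775 and 1.15 untreated and 0.855 and 1.05 treated. Stellate cell markers had 1.23 and 1.10 untreated and 1.05 and 0.765 treated. The part of these shifts in the results was not tested. In whole liver RNA fewer cells of a type and less RNA per cell cannot be told apart.

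Further genes with the smallest p lay outside these lists. Ifrd1, a transcriptional co-regulator gene, had ratios of 0.27 and 0.26 untreated and 2.16 and 3.48 treated (2.96 ± 0.28, limma adjusted p = 0.0765). The linker histone gene H1f2 had 0.62 and 0.44 against 3.07 and 2.67 (2.25 ± 0.23, limma adjusted p = 0.0765). Wfs1, which encodes wolframin of the endoplasmic reticulum membrane, had 0.59 and 0.49 against 2.83 and 4.10 (2.46 ± 0.28). In each of these genes the untreated arrays were close together and both treated arrays stood well above them. Arl14ep (2.22 ± 0.25, second probe set 1.38), Eepd1 (2.33 ± 0.28) and the matrix gene Dpt (1.76 ± 0.24) were next in order of p. Snhg5, a small nucleolar RNA host gene (3.21 ± 0.63), and the phosphatase gene Dusp8 (3.12 ± 0.74, second probe set 1.95) were among the largest changes.

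Lower values of the smallest p belonged to genes of varied function. Crk, a signalling adaptor gene, had ratios of 1.23 and 1.37 untreated and 0.10 and 0.13 treated (-2.70 ± 0.23, limma adjusted p = 0.0765). Mrvi1, a gene of calcium release control in smooth muscle, had 1.57 and 1.87 against 0.31 and 0.32 (-2.13 ± 0.21, limma adjusted p = 0.0765). Kif11 had 1.17 and 1.35 against 0.18 and 0.20 (-2.23 ± 0.23, limma adjusted p = 0.0765). All 3 had tight pairs that were far apart. In Atf4-/- livers Crk (0.18 ± 0.23) and Kif11 (0.25 ± 0.23) changed little. Mrvi1 ran the other way there, with tight pairs of 0.43 and 0.37 untreated and 1.74 and 1.80 treated. The cause was not tested.

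The basement membrane gene Nid2 (1.61 and 1.36 against 0.18 and 0.11, -2.70 ± 0.35) followed, and the median of its row was 0.43. In Atf4-/- livers Nid2 also ran the other way, with 0.06 and 0.18 untreated and 0.98 and 0.68 treated (2.12 ± 0.35). Gja3, a connexin gene, stood at -1.75 ± 0.25, Tal2 at -1.83 ± 0.28, Bst1 at -1.55 ± 0.25 and Hes6 at -2.11 ± 0.34. The muscle myosin gene Myh4 stood at -1.52 ± 0.26, but its second probe set gave 0.38. Esrrb (-1.44 ± 0.26), the nuclear receptor gene Hnf4g (-1.70 ± 0.32), the prostaglandin-degrading enzyme gene Hpgd (-1.25 ± 0.24), Astn1 (-1.71 ± 0.33) and the sperm protein gene Spa17 (-2.54 ± 0.51) completed the order by p together with Cyp8b1. Clip4 (-2.69 ± 0.66), Pip (-2.26 ± 0.67), the uridine phosphorylase gene Upp2 (-2.25 ± 0.47), the phosphatase gene Ptpn11 (-2.15 ± 0.45) and Adgrg1 (-2.13 ± 0.43) were among the largest lower values with separate groups.

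Some genes named above had further probe sets, whose log2 changes bear on how firmly a gene can be read. The same sign with another size was found for Nsdhl (-1.05 and -1.46), Slc10a1 (-0.19 and -0.71), P4hb (-0.26), Map1lc3b (-0.27), Glul (-0.09), Rpl10a (0.75), Junb (1.24), Ero1a (0.50), Nfe2l1 (0.39), Ndrg1 (0.20), Vldlr (0.20) and Yars (0.16). The opposite sign was found for Vwf (0.98) and Shmt1 (0.08). Dnajc3 had 0.01, 0.17 and -1.61, and Aldh18a1 had -1.36. The row median lay below 0.99 for Bst1 (0.23), Clip4 (0.215), Got1 (0.555), Slc7a1 (0.645), Ptpn11 (0.65) and Spa17 (0.845), so that their ratios are not relative to their own median.

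The change in Atf4+/+ livers was set against the change in Atf4-/- livers by the difference of both changes in the same fit, which shares no array between its 2 sides. By limma 0 of 12422 probe sets passed the adjusted test of that difference, and 678 had an unadjusted p under 0.05. That count is near the share of 0.05 that such a threshold passes without any difference. The same threshold gave 1130 probe sets (9.1%) for the change in Atf4+/+ livers. Nupr1 stood at 6.74 in Atf4+/+ and at 0.31 in Atf4-/- livers, a difference of 6.43 ± 1.22 (limma adjusted p = 0.594). Its Atf4-/- ratios were 0.45 and 1.55 untreated and 2.54 and 0.43 treated, so that the arrays of each pair lay far apart. Of the untreated Atf4-/- arrays, replicate 2 has the doubted Atf4 ratio, and replicate 1 is called Atf4+/+ in its description. For Psat1 the values were 4.57 and 1.23 (difference 3.34 ± 0.71, limma adjusted p = 0.623), and for Mthfd2 2.92 and 0.54 (2.38 ± 0.42, limma adjusted p = 0.594). Other stress regulators stood higher in both genotypes. Trib3 stood at 5.34 and 3.09, Atf3 at 4.75 and 2.62, Ddit3 at 4.18 and 2.91, and Atf5 at 1.89 and 2.54. Psph (1.10 and -0.27) and Lars (1.16 and -0.08) were not higher in Atf4-/- livers. B3galt1 stood at 3.39 and 2.78 (0.61 ± 0.30, limma adjusted p = 0.933) and Igfbp1 at 2.04 and 2.12 (-0.08 ± 0.35, limma adjusted p = 0.983). The smallest adjusted p belonged to Mrvi1, at -2.13 and 1.91 (difference -4.03 ± 0.29, limma adjusted p = 0.0666), and Dpt, at 1.76 and -2.46 (4.22 ± 0.34, limma adjusted p = 0.0692). Neither passed the test.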

How the data were processed

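Liver RNA was labelled with an Affymetrix GeneChip kit, per the labels' protocols, and read on 8 arrays. The authors deposited linear ratios in steps of 0.01, and in 85.8% of table rows the median over the arrays reached 0.99. Summarising, scaling and division of the signals are steps not given in the sources used here. Their number, 8, limits what these arrays can resolve. Groups came from source names and descriptions. For 1 untreated Atf4-/- array they disagree, and the source name was used.

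Without the 66 control probe sets, 12422 entered the test on log2(ratio + 0.1), with 4 group means fitted to all 8 arrays in limma 3.58.1 (R 4.3.3, statmod 1.5.0, 4 residual and 2.37 prior degrees of freedom) and Benjamini-Hochberg adjustment over all probe sets. An exact permutation test of 2 against 2 arrays cannot go below p = 0.333, so none was used. On simulated data of this comparison with 12422 probe sets, 1% of changes of 1 were called, 34.4% of changes of 2, 36.8% of changes of -2 and 67.4% of changes of 3, and on average 3.8 probe sets simulated without a change were called in a run. A gene was read from a probe set with a median of at least 0.99, then a plain name, then the lowest identifier, which gave 8251 genes.

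Genes were named by rule: Atf4 and Eif2ak3, those past the test, the 15 smallest p and 10 largest separate changes per direction, all measured genes of the 5 lists on stress regulators, effectors, synthesis, synthetases and transporters, and up to 4 genes per other list. Genes beyond this rule that stand beside them were chosen after their values were seen. Clone names, predicted genes and genes of chromosomes X and Y were left out of the choices by test, smallest p and largest change. The members and lists were chosen with earlier results of these data known. Plots used matplotlib 3.10.9, pandas 2.3.3 and Python 3.11.15.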

Additional observations from a re-analysis of the deposited data

How the results depend on the processing

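The number of probe sets past a limma adjusted p of 0.05, 1 higher and 0 lower as reported, rested on the setting. It was 2 higher with quantile normalization, 5 higher and 3 lower without probe sets of a median below 0.99, 15 higher and 2 lower when untreated Atf4-/- replicate 1 was grouped by its description, and 3 higher and 3 lower with the mean of all probe sets of a gene. It was 0 higher when only the 4 Atf4+/+ arrays, all arrays but untreated Atf4-/- replicate 1, or all but both arrays of doubted Atf4 ratio were used, and 0 to 0 when any 1 of the 4 compared arrays was left out. The cause was not tested, beyond the fewer arrays. With trend and robust fitting the 1 call was another probe set of Atf3 (5.18, limma adjusted p = 0.0498). A threshold of 0.10 gave 12 higher and 3 lower, an unadjusted p 594 and 536, and separate groups with a log2 change of at least 1 gave 491 and 409. Of 2553 values over 160 named genes and 16 settings, 2481 kept their direction and side of the threshold and 40 had the opposite sign. With centred arrays the opposite signs were Phgdh at 0.02. Without both arrays of doubted Atf4 ratio the opposite signs were Nfe2l2 at -0.14, Phgdh at 0.14, Ppp1r15b at -0.43, Qars at 0.07, Stc2 at 0.05 and Vegfa at -0.19. With the mean of all probe sets the opposite signs were Aldh18a1 at -0.68, Dnajc3 at -0.30, Slc38a2 at -0.30 and Vwf at 0.16. With quantile normalization the opposite signs were Aldh18a1 at -0.07 and Wars at -0.00. With grouping by description the opposite signs were Phgdh at 0.16 and Slc7a11 at 0.43. When any 1 array was left out the sign turned within these ranges: Alb -0.11 to 0.03, Aldh18a1 -0.35 to 0.35, Atg5 -0.55 to 0.08, Bcat2 -0.18 to 0.58, Cyp7a1 -1.1 to 0.04, Hars -0.06 to 0.72, Herpud1 -0.04 to 1.03, Nfe2l2 -0.14 to 0.23, Phgdh -0.28 to 0.25, Ppp1r15b -0.43 to 0.87, Qars -0.26 to 0.07, Shmt1 -0.46 to 0.02, Shmt2 -0.34 to 0.08, Slc1a5 -0.53 to 0.01, Slc7a1 -1.08 to 0.02, Slc7a11 -1.36 to 0.73, Slc7a8 -0.04 to 1.21, Stc2 -0.34 to 0.05, Vegfa -0.19 to 0.33 and Wars -0.31 to 0.39. Of 297 list medians, from 33 lists each read under several settings, 80 moved by more than their replicate SD. The sign was the opposite, or the median rounded to 0.00, in 29 of them, which came from 11 lists. Signal over background is not known for ratios, and 2 arrays a group limit what can be told apart. No paired analysis was possible because the labels give the groups no shared replicate numbers.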
